A study of Mus musculus with 8 samples.

Results

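The transcripts followed here are 8 genes grouped here as outputs of Notch signalling: the Hes and Hey family members Hes1, Hes5, Hes6, Hey1, Hey2 and Heyl, the feedback inhibitor Nrarp and the Deltex ligase Dtx4. They were chosen by name from the 24539 genes of the count table, with values in view, because Heyl and Hey1 moved in opposite directions between genotypes. The levels of Hey1 and Heyl are therefore given as a description with no test. All 8 were in the table, and 7 had enough reads to be tested; Hes5 did not. The cells were Six2GFPcre+ mesenchymal nephron progenitors, sorted by fluorescence from kidneys of mouse embryos at E18.5, and each of the 4 groups had 2 libraries. The KO-labelled group was Smo c/c with Six2GFPcre, and the Het-labelled group was Smo c/+ with Six2GFPcre. The WT-labelled group was Smo +/+ with Six2GFPcre, and the SmoM2-labelled group was Rosa26 SmoM2/+ and Smo +/+ with Six2GFPcre. Every group, the WT-labelled controls included, thus carried Six2GFPcre, which places GFP and the Cre recombinase under Six2 regulatory sequence in nephron progenitors. SmoM2 is an activated form of Smo, the membrane protein that passes the Hedgehog signal into the cell.

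Notch receptors are cleaved after they bind a Delta or Jagged ligand on a neighbouring cell, and the freed intracellular domain joins RBPJ and Mastermind-like proteins on DNA to switch on target genes. Hes and Hey genes encode basic helix-loop-helix repressors, and several of them are among the best known of these targets. In the developing kidney, Notch signalling acts as progenitors leave the cap mesenchyme and form the early nephron, and it is needed for its proximal segments. Several of these genes also answer to other signals, so their RNA level is not a reading of Notch activity alone.

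Promoter sequence from RefSeq on GRCm38.p6 was matched for 4 of the 8 genes, namely Hes5, Hes6, Hey2 and Nrarp, with 5 promoters in all because Hes6 had 2. The 250 bases before each start were searched on both strands for GTGGGAA, the letters of a classical RBPJ site. Of 32851 promoters of the table, 5.42% held GTGGGAA, and 21.6% held the shorter TGGGAA that lies inside it. The promoter of Hes5, a textbook Notch target, held GTGGGAA on its own strand from 83 bases before the start and on the other strand from 226 bases before it. The promoter of Hey2, whose RNA differed between groups, held it on the other strand from 207 bases before the start. Neither Nrarp nor Hes6 held either form in these windows. The Nrarp window held CACGTG, an E-box, which 6.02% of promoters held, from 108 bases before the start. It also held CACNAG, the letters of an N-box, at 2 places on the other strand, and 36.7% of promoters held that motif. The Hes6 promoter at chr1:91413223-91413472, which lies within the annotated Hes6 gene, held CACNAG. That at chr1:91414039-91414288, directly before the gene, did not. CACGCG, present in 7.62% of promoters, was in none of the 5. The Hes5 site windows are shown for the pair of RBPJ letters, and the Hey2 and Nrarp promoters because these genes carry the tested differences below. Capitals mark GTGGGAA or its reverse complement in Hes5 and Hey2, and CACGTG in Nrarp. Each is 5′ to 3′ on the gene's strand.
Hes5, chr4:154960829-154960858, plus strand: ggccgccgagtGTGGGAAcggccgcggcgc
Hes5, chr4:154960686-154960715, plus strand: gggcgagcgcgTTCCCACagcccggacatt
Hey2, chr10:30842802-30843033, minus strand: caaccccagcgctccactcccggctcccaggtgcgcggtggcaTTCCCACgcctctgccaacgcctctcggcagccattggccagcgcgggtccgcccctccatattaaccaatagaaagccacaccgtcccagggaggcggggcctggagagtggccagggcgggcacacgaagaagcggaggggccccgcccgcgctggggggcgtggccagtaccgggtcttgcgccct
Nrarp, chr2:25180508-25180757, plus strand: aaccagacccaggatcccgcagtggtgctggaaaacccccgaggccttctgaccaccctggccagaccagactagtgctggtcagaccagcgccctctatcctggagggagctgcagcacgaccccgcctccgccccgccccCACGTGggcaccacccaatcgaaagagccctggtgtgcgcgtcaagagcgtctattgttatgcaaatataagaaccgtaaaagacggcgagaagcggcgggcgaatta

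A letter match is a description of the sequence, and no binding was measured in these libraries. In the GENCODE annotation of the same build, Hes1 lies at chr16:30064384-30067796, Hes5 at chr4:154960923-154962371 and Hes6 at chr1:91411483-91414038. The Hey genes are apart from each other, with Hey1 at chr3:8663359-8667256, Hey2 at chr10:30832359-30842801 and Heyl at chr4:123233556-123249875. Nrarp lies at chr2:25180758-25183339 and Dtx4 at chr19:12466338-12501454. Hes5 and Nrarp each overlap a transcript of the opposite strand, Gm20421 and Gm38287, and reads from such pairs cannot be told apart where strand was not used in counting. The strand setting is not given in the sources used here.

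The libraries held between 4422305 and 10305398 counted reads, the KO-labelled ones being the shallowest. Smo itself went against a label. It stood at 363 and 375 CPM (counts scaled to a common library size) in the WT-labelled libraries, at 13.1 and 11.1 CPM in KO-labelled libraries and at 14.4 and 23.9 CPM in the Het-labelled libraries. Smo in the Het-labelled libraries had a log2 change of -4.28 against the WT-labelled ones (SE 0.20, edgeR adjusted p = 1.55e-06), so the groups are named by their labels throughout. The summed level of 10 progenitor markers was 4683 to 5243 CPM in KO-labelled and 5828 to 6191 CPM in Het-labelled libraries. It was 4159 to 4463 CPM in WT-labelled and 4276 to 4313 CPM in SmoM2-labelled libraries. The ureteric bud list summed to 7.84 to 9.96 CPM in KO-labelled and 5.77 to 6.02 CPM in Het-labelled libraries. Its sum was 17.6 to 20.2 CPM in WT-labelled and 33.3 to 46.3 CPM in SmoM2-labelled libraries. Whether these differences have a part in the member values was not tested. The libraries labelled KO both had the read pattern of male embryos and those labelled Het that of female embryos, while the WT- and SmoM2-labelled groups held both sexes, so sex goes with genotype between the KO- and Het-labelled groups, and a fit with sex as a covariate takes its sex effect from the other 4 libraries. The labels do not say that libraries came from separate animals, and p-values measure only the spread between these libraries. In sorted bulk cells, fewer cells expressing a gene and less RNA per cell cannot be told apart.

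Per unit of gene length, Hes1 and Hes6 were the most abundant of the 8 transcripts. On the deposited RPKM scale (reads scaled for gene length and library total), Hes1 ranged from 45.3 to 102 with a median of 90.4 over the 8 libraries, and Hes6 from 49.7 to 92.9 with a median of 59.7. Hey1 followed with a median of 14 RPKM, between 8.5 and 40.6. Heyl had a median of 9.2 RPKM, between 1.99 and 19.3. Dtx4 with a median of 2.95 RPKM and Nrarp with 2.76 were lower again. Hey2 reached at most 1.7 RPKM, and Hes5 stayed between 0 and 0.294 RPKM. The order of Hey1 and Heyl depended on the genotype. Hey1 stood above Heyl under the KO and Het labels, at 34.7 and 40.6 RPKM against 3.43 and 3.56 in the KO-labelled ones. Heyl stood above Hey1 in the WT- and SmoM2-labelled libraries, at 15.2 and 14.8 RPKM against 9.67 and 12.7 in the WT-labelled ones.

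**Figure D1:**
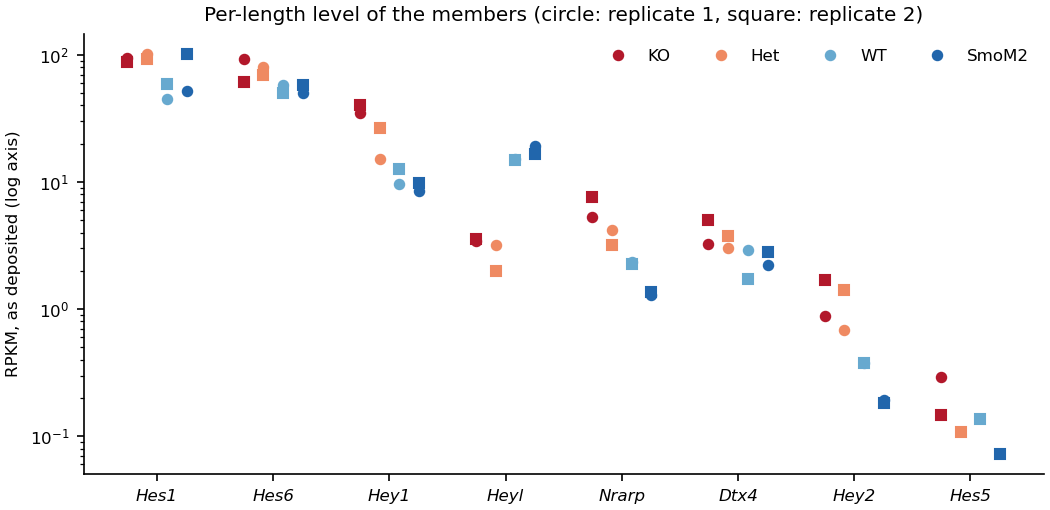
Deposited RPKM of the 8 genes in each library, on a log axis, with points coloured by genotype label. Hes1 and Hes6 lie at 45.3 RPKM or above in all 8 libraries, Hey1 and Heyl trade places between the labels, and Hes5 lies at or below 0.294 RPKM, its 3 libraries with 0 reads not being drawn.

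Hes1, a repressor that keeps progenitors of many tissues from differentiating, was higher in the Het-labelled than in the WT-labelled libraries. Its level was 163 and 147 CPM in the KO-labelled libraries, 181 and 168 CPM in the Het-labelled, 77.6 and 108 CPM in the WT-labelled, and 93.8 and 187 CPM in those labelled SmoM2. All 4 KO- and Het-labelled libraries lay above both WT-labelled libraries, while the SmoM2-labelled pair lay far apart, its second library the highest of all 8 and its first within the WT-labelled range. Against the WT-labelled libraries, Hes1 rose in the Het-labelled ones by a log2 change of 0.92 (SE 0.26, edgeR adjusted p = 0.0233). That call was lost with DESeq2 (adjusted p = 0.0618), without either Het-labelled library (edgeR adjusted p = 0.109 and 0.0754) and without WT-labelled replicate 1 (0.122). The KO-labelled libraries had a log2 difference of 0.75 from the WT-labelled ones (SE 0.26, edgeR adjusted p = 0.0571), which missed the threshold of 0.05. With the sex pattern of the libraries as a covariate, that difference was 1.13 (edgeR adjusted p = 0.00122), while the Het-labelled one fell from 0.92 to 0.56. Such a fit takes its sex effect from the WT- and SmoM2-labelled pairs, and so leans on the SmoM2-labelled pair that lay far apart. The SmoM2-labelled value of 0.60 (SE 0.26, edgeR adjusted p = 0.62) rested on a pair that did not hold together. Set against those libraries, Hes1 had a log2 difference of 0.15 in the KO-labelled (edgeR adjusted p = 0.685) and 0.32 in the Het-labelled group (edgeR adjusted p = 0.361).

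The summed level of 10 genes that cells raise when tissue is dissociated was, like Hes1, higher in the KO- and Het-labelled than in the WT-labelled libraries. It was 4043 and 5938 CPM in the KO-labelled libraries, 7998 and 7967 CPM in the Het-labelled, 2870 and 3040 CPM in the WT-labelled, and 3290 and 4775 CPM in those labelled SmoM2. The second SmoM2-labelled library was the higher of its pair for this sum as for Hes1. Within the KO-labelled pair, the second library was the higher for the sum and the lower for Hes1. The SmoM2-labelled library with the highest Hes1 had a smaller sum than either Het-labelled library. Fos, an immediate early gene of that list, stood at 447 and 726 CPM in those labelled SmoM2 and at 353 and 362 CPM in the WT-labelled ones. Of the 10 genes, 4 passed the test as higher in the KO-labelled libraries and 6 in the Het-labelled ones, both against WT-labelled, and none as lower. Over all genes, 11.6% and 13.1% were called higher in these comparisons. Whether the dissociation response has a part in the Hes1 values was not tested.

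Hes6, a family member known to oppose Hes1 and to favour differentiation, had no difference between groups that passed the test. It stood at 147 and 95.4 CPM in KO-labelled libraries, 131 and 116 CPM in the Het-labelled, 91.1 and 83.6 CPM in the WT-labelled, and 84 and 97.1 CPM in those labelled SmoM2. The KO- and Het-labelled libraries lay above the WT-labelled ones, but the second KO-labelled library lay within the SmoM2-labelled range. Its log2 difference from the WT-labelled libraries was 0.47 in the KO-labelled (SE 0.18, edgeR adjusted p = 0.0836) and 0.50 in the Het-labelled libraries (SE 0.18, edgeR adjusted p = 0.0616). DESeq2 called the latter, with an adjusted p of 0.0381. Hes5, elsewhere a sensitive Notch target, was not detectable as different at this depth. It had 2 and 1 counts in the KO-labelled libraries, 0 and 1 in the Het-labelled, 0 and 2 in the WT-labelled, and 0 and 1 in the SmoM2-labelled libraries. These 7 reads lie in each library below the level of 3 counts that a count of 0 allows, which is 0.28 to 0.664 CPM across the libraries, and no fold is given. Such limits cover counting error only.

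Among the Hey genes, which encode repressors related to Hes proteins, Hey1 was highest in the KO-labelled libraries and Heyl was highest in the SmoM2-labelled ones. Hey1 stood at 90.3 and 104 CPM in the KO-labelled libraries, at 41.6 and 72.5 CPM in the Het-labelled, at 25.2 and 35.4 CPM in the WT-labelled and at 23.4 and 27.4 CPM in those labelled SmoM2. The KO-labelled pair lay above the Het-labelled pair and the Het-labelled pair above the WT-labelled pair, while the WT- and SmoM2-labelled libraries overlapped. Group means were 97.2 ± 9.7 CPM (SD, n = 2) in the KO-labelled and 30.3 ± 7.23 CPM (SD, n = 2) in the WT-labelled libraries, a fitted log2 difference of 1.69 (SE 0.24). The Het-labelled mean was 57 ± 21.9 CPM (SD, n = 2), a log2 difference of 0.91 (SE 0.24) from the WT-labelled one. That Het-labelled value was 0.44 without Het-labelled replicate 2, so a single library sets much of its size.

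Heyl stood the other way between the labels low and high in Smo. It stood at 18.4 and 18.7 CPM in the KO-labelled libraries, at 17.6 and 11.2 CPM in the Het-labelled, at 81.3 and 84.8 CPM in the WT-labelled, and at 110 and 93.8 CPM in those labelled SmoM2. No group overlapped another, and the gap between the Smo-low and Smo-high labels was wider than that within either side. The fitted log2 difference from the WT-labelled libraries was -2.16 (SE 0.19) in the KO-labelled and -2.51 (SE 0.19) in the Het-labelled libraries, and 0.29 (SE 0.16) in the SmoM2-labelled ones. Between the KO- and Het-labelled groups, both genes had the higher mean in the KO-labelled one, with ratios of 1.7 for Hey1 and 1.29 for Heyl. Heyl is known from vascular smooth muscle as well as from the nephron. The list of mural and smooth muscle markers summed to 461 to 502 CPM in KO-labelled libraries, 586 to 601 CPM in the Het-labelled, 542 to 589 CPM in the WT-labelled and 505 to 528 CPM in those labelled SmoM2. Des and Mcam, which are not specific to mural cells, made up most of that sum. Acta2, of smooth muscle, stood at 31.7 and 16.1 CPM in KO-labelled libraries and at 9.51 and 7.95 CPM in the WT-labelled, and Rgs5, of pericytes, at 26.6 and 19.6 CPM against 9.14 and 10.2 CPM. Abcc9, another pericyte marker, had 2.66 and 0.871 CPM in KO-labelled libraries, 0.936 and 2.21 CPM in the Het-labelled, 3.45 and 3.05 CPM in the WT-labelled and 6.44 and 8.44 CPM in those labelled SmoM2. The markers of this list thus did not move together. Foxd1, a marker of kidney stroma, had the same side-to-side order as Heyl, with 12.8 and 3.7 CPM in KO-labelled libraries, 22.5 and 14.6 CPM in the Het-labelled, 197 and 171 CPM in the WT-labelled and 385 and 301 CPM in those labelled SmoM2. Foxd1 was the only 1 of 9 tested stromal markers that passed the test as lower against WT-labelled libraries, in the KO- as in the Het-labelled group, and no further stromal marker was called higher or lower there. The summed stromal list overlapped between these labels, at 88.4 to 625 CPM in KO-labelled libraries and 339 to 533 CPM in the WT-labelled libraries. Whether stromal or mural cells have a part in the Heyl values was not tested.

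Hey2, the third Hey gene, was scarce and followed Hey1 rather than Heyl in its order. It had 12 and 23 counts in the KO-labelled libraries, 16 and 26 in the Het-labelled, 12 and 11 in the WT-labelled and 6 and 5 in the SmoM2-labelled libraries. Scaled for depth, these were 2.66 and 5.01 CPM, 2.14 and 4.42 CPM, 1.12 and 1.2 CPM, and 0.613 and 0.578 CPM in the same order. The KO- and Het-labelled libraries overlapped each other and lay above the WT-labelled pair, which lay above the SmoM2-labelled pair. Hey2 rose in the KO-labelled against the WT-labelled libraries by a log2 change of 1.72 (SE 0.52, edgeR adjusted p = 0.0359). That call was lost with DESeq2 (adjusted p = 0.0761), with the sex pattern as a covariate (edgeR adjusted p = 0.07) and without KO-labelled replicate 2 (log2 1.18, edgeR adjusted p = 0.237), and also without either WT-labelled library (0.126 and 0.11) or either SmoM2-labelled library (0.0527). The Het-labelled value of 1.46 (SE 0.51, edgeR adjusted p = 0.0561) missed the threshold. Against the SmoM2-labelled libraries, the log2 change was 2.65 in the KO-labelled (SE 0.58, edgeR adjusted p = 0.00582) and 2.40 in the Het-labelled libraries (SE 0.57, edgeR adjusted p = 0.00811). The first of these was lost without KO-labelled replicate 2 (edgeR adjusted p = 0.0551), and the second without Het-labelled replicate 2 (0.0952) or SmoM2-labelled replicate 2 (0.0539).

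Nrarp, which binds the Notch intracellular domain complex and limits its activity, was ordered over the 4 labels with no overlap. It stood at 16.2 and 22.9 CPM in the KO-labelled libraries, at 13.4 and 10.2 CPM in the Het-labelled, at 7.08 and 7.41 CPM in the WT-labelled and at 4.19 and 4.39 CPM in those labelled SmoM2. Neighbouring group means stood in ratios of 1.66, 1.63 and 1.69, from the KO-labelled down to the SmoM2-labelled group. Nrarp rose in the KO-labelled against the WT-labelled libraries by a log2 change of 1.43 (SE 0.25, edgeR adjusted p = 0.00316). Against the SmoM2-labelled libraries it rose by 2.18 in the KO-labelled (SE 0.27, edgeR adjusted p = 0.000234) and by 1.46 in the Het-labelled libraries (SE 0.27, edgeR adjusted p = 0.00216). These 3 calls held in every alternative run, with highest adjusted p-values of 0.0264, 0.00331 and 0.0299. The neighbouring steps did not pass: the edgeR adjusted p was 0.0907 for KO- against Het-labelled, 0.0626 for Het- against WT-labelled and 0.471 for SmoM2- against WT-labelled libraries.

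Dtx4, an E3 ubiquitin ligase of the Deltex family that modifies Notch signalling, showed no change that passed the test. It stood at 22.4 and 33.5 CPM in KO-labelled libraries, 21.3 and 26.7 CPM in the Het-labelled, 19.8 and 12.5 CPM in the WT-labelled, and 16.2 and 20.3 CPM in those labelled SmoM2. The KO- and Het-labelled libraries lay above all WT- and SmoM2-labelled ones, with gaps smaller than the spread within pairs. Its log2 difference for KO- against WT-labelled was 0.79 (SE 0.27, edgeR adjusted p = 0.0537). Without WT-labelled replicate 1 it was 1.15 and passed (edgeR adjusted p = 0.0238), and DESeq2 called it on all libraries (adjusted p = 0.0483).

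**Figure D2:**
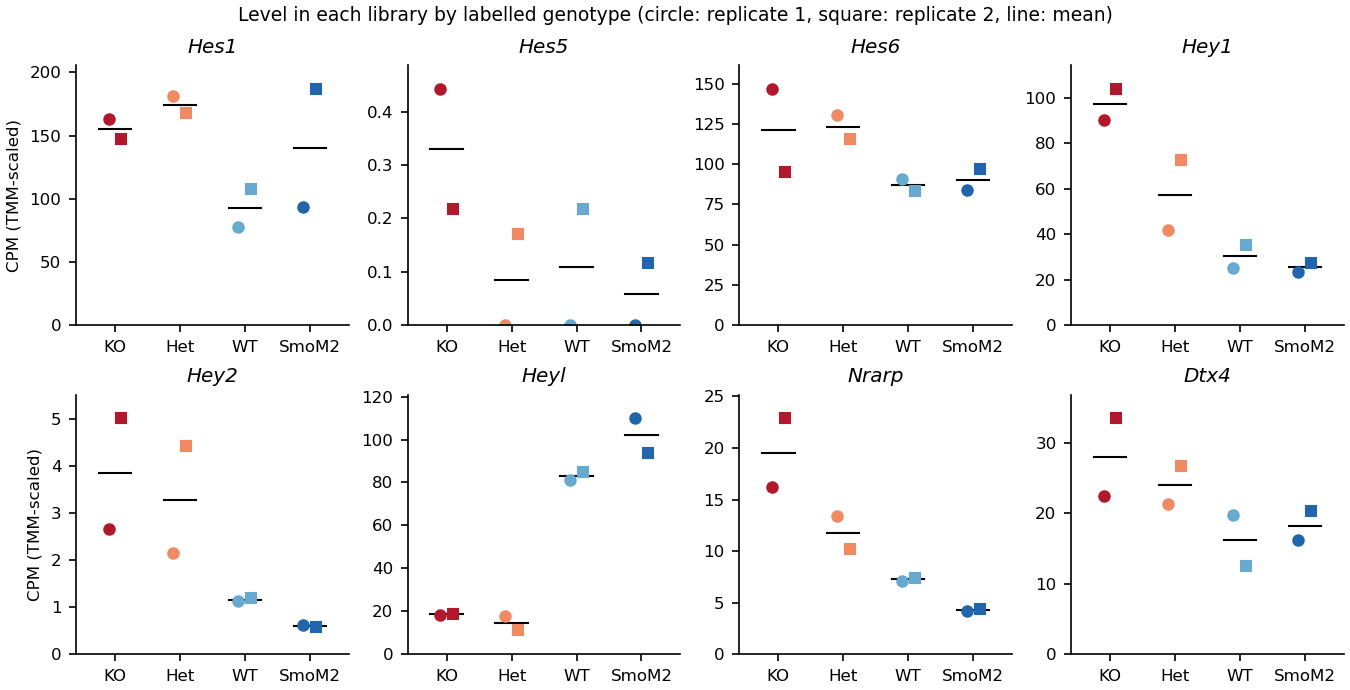
CPM of the 8 genes in each of the 8 libraries, a panel for each gene with its own axis from 0, grouped by genotype label, with circles and squares for replicates 1 and 2 and lines for group means. Hey1 and Nrarp step down from the KO-labelled to the WT-labelled pair, Heyl stands at 18.7 CPM or less under the KO and Het labels and at 81.3 CPM or more in the others, and the SmoM2-labelled pair of Hes1 lies apart.

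Since the pattern of Hey1 and Heyl chose the set, tests are counted over the 5 other members that could be tested, Hes1, Hes6, Hey2, Nrarp and Dtx4. For KO- against WT-labelled libraries, 2 of the 5 members passed an edgeR adjusted p under 0.05, beside 23.0% of the 13459 genes tested. Both, Hey2 and Nrarp, were higher, and the shares over all genes were 11.6% higher and 11.4% lower. The median log2 change of the 5 was 0.79, beside 0.03 over all genes tested. For Het- against WT-labelled libraries, 1 of the 5 members passed, Hes1 as higher, beside 25.3% of all genes (13.1% higher, 12.2% lower), and their median was 0.71 beside -0.02. The members were chosen with these values known, so nothing is read from the counts.

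For SmoM2- against WT-labelled libraries, edgeR called 0 of the 5 members, beside 0.223% of all genes (0.156% higher, 0.0669% lower), and 2 of them, Hes1 and Nrarp, had an unadjusted p under 0.05; DESeq2 also called 0. Their median log2 change there was 0.05, beside 0.00 over all genes. For KO- against Het-labelled libraries, edgeR called 0 of the 5 members, beside 9.43% of all genes (4.33% higher, 5.10% lower), and Nrarp was the 1 with an unadjusted p under 0.05; DESeq2 also called 0. Their median was 0.23 beside 0.02. Against the SmoM2-labelled libraries, Hey2 and Nrarp passed as higher in the KO-labelled libraries, 2 of the 5 members beside 32.5% of all genes (16.5% higher, 16.0% lower). The same 2 genes passed in the Het-labelled libraries, beside 33.7% of all genes (16.9% higher, 16.7% lower). These comparisons share libraries and are not independent. A fit without the Het-labelled group, whose Smo level went against its label, was added after the data were seen. In that fit, Hey2 and Nrarp passed for KO- against WT-labelled libraries (edgeR adjusted p = 0.0377 and 0.00513) and for KO- against SmoM2-labelled ones (0.00608 and 0.000375).

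**Figure D3:**
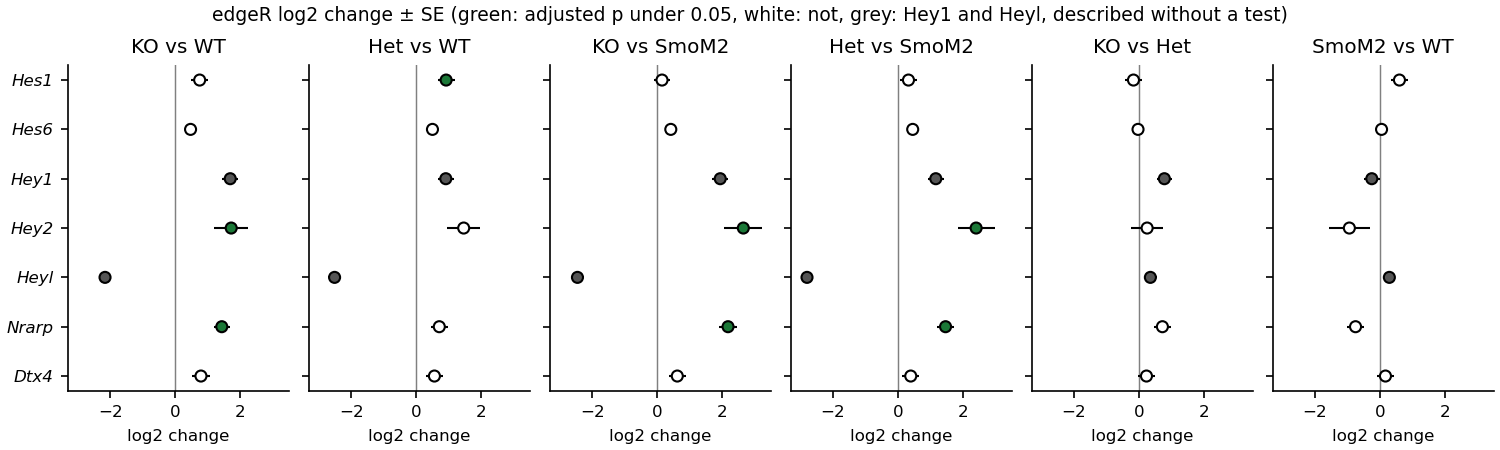
Fitted log2 difference of each tested member, with its standard error, in the 6 comparisons between labels. Green marks an edgeR adjusted p under 0.05, white a value that did not pass, and grey Hey1 and Heyl, which are described with no test; Heyl lies at -2.16 and Hey1 at 1.69 for KO- against WT-labelled libraries.

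Some markers of other states and cell types differed in the KO-labelled group. Of 11 tested genes of early nephron differentiation, 8 passed as higher in the KO-labelled against the WT-labelled libraries and none as lower. Over all genes, 11.6% were called higher and 11.4% lower there. For Het- against WT-labelled libraries 2 passed as higher, beside 13.1% over all genes. Between KO- and WT-labelled libraries, 3 of 4 tested erythroid genes passed as higher. As lower there passed 2 of 4 ureteric bud genes and 2 of 4 podocyte genes. Their summed level was 1016 to 1186 CPM in KO-labelled libraries, 548 to 735 CPM in the Het-labelled, 475 to 608 CPM in the WT-labelled and 454 to 594 CPM in those labelled SmoM2. Lhx1, a factor of the renal vesicle, stood at 62.2 and 122 CPM in the KO-labelled libraries and at 4.68 and 9.34 CPM in the Het-labelled, against 4.66 and 10.9 CPM in the WT-labelled ones. Lhx1 rose by a log2 change of 3.58 in the KO-labelled (SE 0.42, edgeR adjusted p = 0.00034), and the Het-labelled value was -0.16 (edgeR adjusted p = 0.829). The 2 genes of the list called in the Het-labelled libraries were Fgf8, a growth factor of the renal vesicle, and Pax8, an early nephron factor. Fgf8 stood at 116 and 89.9 CPM in KO-labelled libraries, 64.3 and 69 CPM in the Het-labelled, 4.01 and 8.28 CPM in the WT-labelled and 4.09 and 6.13 CPM in those labelled SmoM2. Its log2 change against WT-labelled was 4.09 in the KO-labelled (SE 0.28, edgeR adjusted p = 2.28e-05) and 3.46 in the Het-labelled group (SE 0.27, edgeR adjusted p = 4.67e-05). Pax8 rose by 1.29 in the KO-labelled (SE 0.13, edgeR adjusted p = 0.000141) and by 0.79 in the Het-labelled group (SE 0.13, edgeR adjusted p = 0.0015). The genes of the list thus differed in whether the Het-labelled libraries stood with the KO- or the WT-labelled ones. Endothelial markers, a list that matters because Hey1 and Hey2 are also endothelial genes, summed to 35.5 to 44.3 CPM in KO-labelled libraries and 11.7 to 22.3 CPM in the WT- and SmoM2-labelled libraries, with 15.1 to 19 CPM in the Het-labelled ones. Of those 11 genes, 3 had at most 3 counts in every library, and 2 of 3 tested genes, Cldn5 and Egfl7, passed as higher in the KO-labelled against the WT-labelled libraries. Those 2 genes made up most of the sum, Cldn5 with 22.1 and 17 CPM in KO-labelled libraries against 1.21 and 2.07 CPM in the WT-labelled, and Egfl7 with 17.3 and 15.7 CPM against 7.08 and 11.4 CPM. The other genes of the list were scarce. KO-labelled libraries had 1 and 0 counts of Kdr, 0 and 0 of Erg and Sox17, 2 and 0 of Pecam1 and 0 and 2 of Flt1. They had 3 and 2 counts of Cdh5, 4 and 2 of Emcn, 8 and 2 of Tie1 and 4 and 5 of Tek. Tek stood at 0.886 and 1.09 CPM there against 0.653 and 0.327 CPM in the WT-labelled, and Kdr at 0.221 and 0 against 0.839 and 0.436 CPM. The part of early nephron or endothelial cells in the member values was not tested.

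**Figure D4:**
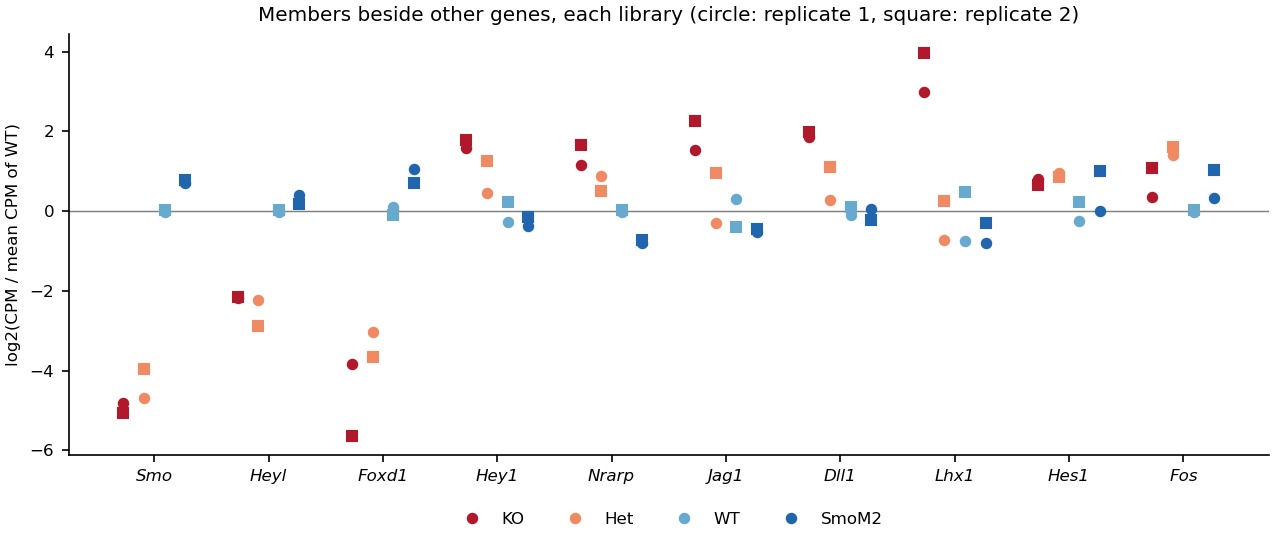
Log2 ratio of CPM in each library to the WT-labelled mean, for Smo, 4 members and 5 other genes, with circles and squares for replicates 1 and 2. Lhx1, Jag1 and Dll1 stand highest in the KO-labelled libraries, Foxd1 and Heyl are low under the KO and Het labels, and Fos and Hes1 are both raised in the second SmoM2-labelled library.

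Upstream of these outputs, 62 other genes of the Notch pathway were listed by role, and 57 were tested. For KO- against WT-labelled libraries, 4 of the 57 passed as higher and 16 as lower, beside 11.6% higher and 11.4% lower over all genes, with a median log2 change of -0.14 beside 0.03 over all genes tested. For Het- against WT-labelled libraries, 12 passed as higher and 4 as lower, beside 13.1% and 12.2% over all genes, with a median of 0.06 beside -0.02. For SmoM2- against WT-labelled libraries edgeR and DESeq2 called 0 of the 57. Of the 3 tested ligands, 2 rose in the KO-labelled libraries, and none of the 4 receptors had a call there. Jag1, a ligand of the Jagged type, stood at 107 and 179 CPM in the KO-labelled libraries, 30.2 and 71.8 CPM in the Het-labelled, 46 and 28.2 CPM in the WT-labelled, and 25.6 and 27.4 CPM in those labelled SmoM2. It rose by a log2 change of 1.94 in the KO-labelled against the WT-labelled libraries (SE 0.35, edgeR adjusted p = 0.00359). Dll1, a Delta-like ligand, stood at 27 and 29.2 CPM in KO-labelled libraries, 9.09 and 16 CPM in the Het-labelled, 6.9 and 7.95 CPM in the WT-labelled, and 7.77 and 6.36 CPM in those labelled SmoM2. Dll1 rose by 1.92 (SE 0.27, edgeR adjusted p = 0.00096) in the KO-labelled against the WT-labelled libraries. Both ligands were higher in the KO-labelled libraries than in all the others, whereas Heyl was low in the Het-labelled libraries as well. Dll1 was intermediate in the Het-labelled libraries, which lay above every WT- and SmoM2-labelled library. Its log2 difference there was 0.81 from the SmoM2-labelled (SE 0.28, edgeR adjusted p = 0.0432) and 0.74 from the WT-labelled group (SE 0.28, edgeR adjusted p = 0.0693).

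Among genes that cleave the receptor or act with it in the nucleus, the calls for KO- against WT-labelled libraries were all in the lower direction, in a comparison where 11.4% of all genes were called lower and 11.6% higher. Of 10 tested genes for receptor cleavage, 5 fell and none rose in the KO-labelled against the WT-labelled libraries, among them Ncstn, a subunit of gamma-secretase (log2 -0.72, SE 0.13, edgeR adjusted p = 0.00305), and Furin, the protease that processes the receptor on its way to the surface (log2 -0.71, SE 0.11, edgeR adjusted p = 0.00192). Of 8 genes of the nuclear complex, 5 fell, including the histone acetyltransferase gene Crebbp (log2 -0.76, SE 0.16, edgeR adjusted p = 0.00739). Rbpj, the DNA-binding partner of the cleaved receptor, fell in the Het-labelled against the WT-labelled group (log2 -0.96, SE 0.15, edgeR adjusted p = 0.00146). Of 10 co-repressor genes, 3 fell in the KO-labelled libraries and 3 rose in the Het-labelled ones, both against WT-labelled. Spen, a co-repressor that binds RBPJ, fell by a log2 change of -0.92 in the KO-labelled against the Het-labelled libraries (SE 0.11, edgeR adjusted p = 0.0046). Mib1, the ligase that prepares ligands for signalling, fell in the KO-labelled libraries (log2 -0.96, SE 0.20, edgeR adjusted p = 0.0076), and Rfng, a Fringe enzyme that modifies receptors, rose in the Het-labelled ones (log2 0.95, SE 0.19, edgeR adjusted p = 0.00475), both against WT-labelled. The 10 relatives of the members, other Hes, Hey-related and Deltex genes, had 7 tested, of which 1 rose and 1 fell in the KO-labelled and 3 rose in the Het-labelled libraries. Mfng, a Fringe enzyme gene called higher in the KO-labelled libraries, and Hes7, called higher in the Het-labelled ones, had no more than 12 and 10 reads in any library, and DESeq2 called neither (adjusted p = 0.1 and 0.161).

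Several other pathway genes passed on all libraries but not when some single library was left out. The receptor gene Notch3 rose in the Het-labelled against the WT-labelled group (log2 0.76, SE 0.19, edgeR adjusted p = 0.0156), and the adjusted p was 0.122 without Het-labelled replicate 2 and 0.095 without WT-labelled replicate 1. Mib2, a relative of Mib1, rose there by 0.78 (edgeR adjusted p = 0.0047), with 0.0536 without Het-labelled replicate 2. Dtx2, a Deltex gene like Dtx4, rose by 0.66 in the Het-labelled (edgeR adjusted p = 0.00783) and by 0.62 under the KO label (edgeR adjusted p = 0.012), with 0.0664 without Het-labelled replicate 2 and 0.0776 without KO-labelled replicate 1. Between KO- and Het-labelled libraries, 2 of the 57 pathway genes were called higher and 12 lower, beside 4.33% and 5.10% over all genes, and with the sex pattern as a covariate 0 and 3. Jag1 was higher there by 1.5 (edgeR adjusted p = 0.0262) and Dll1 by 1.18 (edgeR adjusted p = 0.0232), but with the sex covariate the adjusted p was 0.173 and 0.0986.

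**Figure D5:**
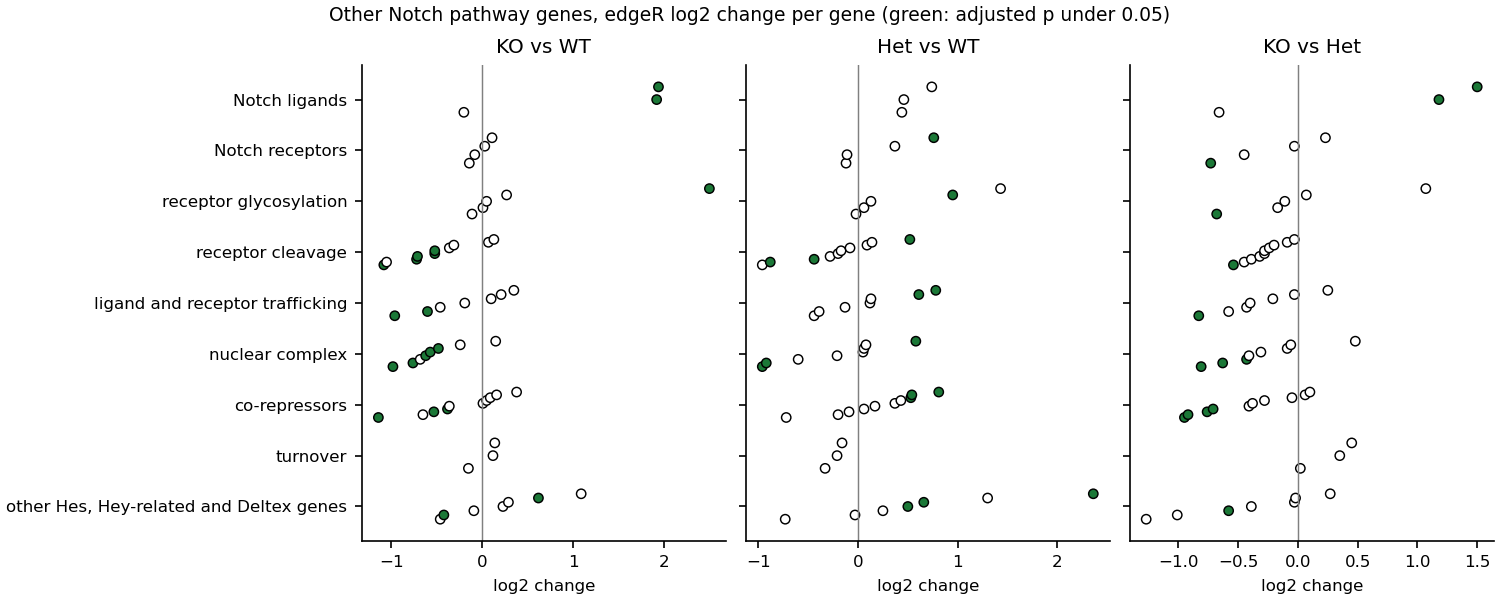
Fitted log2 differences of the other Notch pathway genes by role, in a panel each for KO- against WT-labelled, Het- against WT-labelled and KO- against Het-labelled libraries, with green for an edgeR adjusted p under 0.05 and a point for each gene. Ligands carry 2 higher calls of 3 tested in the KO-labelled libraries, and receptor cleavage and the nuclear complex carry 5 lower calls each.

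The genes nearest to each member over the 8 libraries were taken from 1210 genes of sufficient level and spread, by Pearson's r of log2 CPM, as a description of points that share libraries and genotype. For Hey1 they were Gas7 (r = 0.992), Emid1 (0.99) and Lgr6 (0.978). Lgr6, a receptor for R-spondins, stood at 40.3 and 64.7 CPM in the KO-labelled libraries, 22.7 and 49.1 CPM in the Het-labelled, 7.83 and 13.1 CPM in the WT-labelled and 8.69 and 9.01 CPM in those labelled SmoM2. Heyl lay near Aatk (r = 0.998) and Adgrv1 (0.989), and Adgrv1 had 6.45 to 8.96 CPM under the KO and Het labels and 33 to 42 CPM in the others. Hey2 lay nearest to Taf12 (0.976), Gldn (0.971) and Dusp2 (0.968), and Nrarp to March3 (0.971), Polb (0.965) and Tmem97 (0.962). Hes1 had looser neighbours, Hspa5 (0.902), Eno1 (0.893) and Sdf2l1 (0.887). Hspa5, a chaperone of the endoplasmic reticulum, stood at 552 and 964 CPM in those labelled SmoM2, its second library the higher as for Hes1. Hes6 lay nearest to Gal3st3 (0.95), Exog (0.921) and 6330403K07Rik (0.921), and Dtx4 to Lpar1 (0.921), Pnp (0.89) and Sgk1 (0.887). No gene named here was among the 3 nearest of more than a single member. Genes further down these orders were not listed, so shared neighbours are not excluded.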

How the data were processed

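RNA sequencing libraries of polyadenylated RNA from sorted cells were compared over genotype labels, which with the replicate numbers come from the sample labels. The authors aligned reads with STAR and counted them with featureCounts of Subread on mm10, per the submitters' processing notes; versions, annotation and strand setting are not given in the sources used here. The deposited values are raw read counts per gene, RPKM computed by the authors and a gene length, per the file headers. Listed counts were 81.1% to 83.3% of the library totals that the deposited RPKM imply. The test was run on counts by edgeR 4.0.16 (R 4.3.3): TMM scaling, filterByExpr on the 4 groups (13459 genes kept), a quasi-likelihood fit with a mean per group over all 8 libraries (4 residual degrees of freedom, biological coefficient of variation 13.5%), two-sided, Benjamini-Hochberg adjustment over all tested genes, threshold 0.05. Levels are CPM at the scaled library size, and log2 CPM used a prior count of 2. On counts simulated for KO- against WT-labelled libraries with 13132 genes, 73% of genes changed by log2 1 and 94% of those changed by log2 2 were recovered, with 0.147% of unchanged genes called. The changed genes were drawn from those above a set expected count, so this recovery does not cover genes as scarce as Hes5 and Hey2. Only 100 genes were changed at each size, in the KO-labelled libraries alone, with the spread taken from the fit. In the data, 23.0% of genes were called in that comparison, so these rates need not hold for the data. DESeq2 1.42.0, other scalings and filters, a replicate block, a sex covariate and leaving out each library were alternatives. Leaving out the Het-labelled group was an alternative added after the data were seen. The members and gene lists were chosen with earlier results of these data known. Named besides the members were, per pathway list, at most 3 called genes with the largest changes, of which the text gives those whose calls held in the alternatives and a few that did not, the 3 nearest genes of each member and Smo; some genes that the rule names are not reported here; Lhx1, Fgf8, Pax8, Foxd1, Fos and the endothelial and mural genes were named after their values were seen. Gene positions come from GENCODE M21 and promoters from RefSeq, both on GRCm38.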

Additional observations from a re-analysis of the deposited data

How the results depend on the processing

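The counts here include Hey1 and Heyl, whose pattern chose the set and which the report does not test. These genes supply most of the 15 calls below. The tallies are therefore no support for the 5 other tested members. Of 15 member changes that passed the test, 230 alternative values were computed: 213 kept the call, 17 lost it and 0 reversed. Of 27 that did not pass, 39 of 414 alternative values passed and 12 reversed. With no filter on low counts, 7 members passed for KO- against WT-labelled libraries, 6 for Het- against WT-labelled, 1 for SmoM2- against WT-labelled and 1 for KO- against Het-labelled. Correlations of replicate deviations between groups were -0.06 to 0.1, except 0.39 between the SmoM2- and WT-labelled groups. In both of those groups, replicate 1 had the male and replicate 2 the female read pattern, so replicate number goes with sex there. With the replicate block, 5 members passed for Het- against WT-labelled and 1 for KO- against Het-labelled libraries. DESeq2 called 1 for KO- against Het-labelled libraries, and 0 of the 5 other members. Leaving out each library in turn gave 1 to 4 members for Het- against WT-labelled, 0 to 1 for KO- against Het-labelled and 2 to 5 for Het- against SmoM2-labelled libraries. With the sex covariate, KO- against Het-labelled gave a log2 difference of 0.57 for Hes1 and 0.01 for Hes6. Leaving out single libraries also turned the sign of these changes, none of which had passed: for SmoM2- against WT-labelled libraries Hes6 ranged from -0.05 to 0.16, Hey1 from -0.48 to 0.02 and Dtx4 from -0.1 to 0.54; for KO- against Het-labelled Hes6 from -0.38 to 0.24, Hey2 from -0.28 to 0.82 and Dtx4 from -0.1 to 0.49; against SmoM2-labelled libraries Hes1 ranged from -0.31 to 0.68 in the KO-labelled and from -0.13 to 0.86 in the Het-labelled ones. On RPKM from TMM-scaled totals, Hey2 was 0.371 in the WT-labelled and Heyl 3.4 in the KO-labelled libraries. Over all genes, calls for SmoM2- against WT-labelled libraries numbered 30, with 79 by DESeq2, 356 with no filter, 8 in a fit of only these groups, 54 with the replicate block, 54 with the sex covariate and 8 to 81 without single libraries. For KO- against Het-labelled libraries they numbered 1269, with 2217 unfiltered and 36 to 1472 without single libraries. Without single libraries, the other counts were 1304 to 2924 against 3100 (KO and WT), 1401 to 3615 against 3403 (Het and WT), 2423 to 4440 against 4372 (KO and SmoM2) and 2409 to 4732 against 4529 (Het and SmoM2). The 4 higher and 16 lower pathway calls for KO- against WT-labelled libraries became 2 to 5 and 7 to 17, the 12 and 4 for Het- against WT-labelled became 3 to 13 and 1 to 5, and the 2 and 12 for KO- against Het-labelled became 0 to 2 and 1 to 14. The cause of these shifts was not tested. The depth limits Hes5 and Hey2 most.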
